A study of Mus musculus with 12 samples.

Results

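The comparison was between cortical glial cells given thapsigargin and the same kind of cells kept in calcium-free medium, and it used 8 of the 12 libraries of the series, chosen by their labels alone. The cells were primary cultures, labelled as astrocytes, from the frontal cortices of wild-type CD1 mice of postnatal days 3 to 5, with each preparation described as coming from a single mouse. They were grown with serum, B27 and 10 ng/ml EGF, split at day 7 in vitro and used 3 to 7 days later. The 4 thapsigargin libraries came from cells exposed to 3 µM of the drug for 60 min, and the 4 calcium-free libraries from cells kept for 60 min without external calcium and with EGTA. All cells of both groups shared the genotype and the growth medium, EGF included. The 4 vehicle control libraries entered no test and their levels are given as a description. The series text calls the 4 samples of a group biological replicates, and the labels do not say which animal each one came from.

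Thapsigargin blocks SERCA, the pump that carries calcium from the cytosol into the endoplasmic reticulum (ER), so that the store leaks empty while calcium can still enter from outside through store-operated channels. EGTA binds calcium in the medium. It takes away that entry, and also the calcium that holds cadherins and the extracellular part of Notch receptors together. Both treatments bear on ER calcium, and the direct contrast asks which transcripts differ between them, without reference to the untreated state. Astrocytes rely on ER calcium release and store-operated entry for many of their calcium signals.

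The library total averaged 42.1 ± 0.418 M counts with thapsigargin and 39.3 ± 2.51 M counts without external calcium (SD, 4 libraries each, exact permutation test, two-sided, p = 0.114, adjusted 0.229 over 2 tests of library values, where 0.0286 is the smallest p that 4 against 4 allows). The difference in library total was 3.82 M without replicate 4 of the calcium-free group, with p = 0.0286 in the same exact test, not adjusted. That library, at 42.3 M, was the only calcium-free one within the thapsigargin range of 41.7 to 42.6 M. Leaving it out separates the groups fully, which gives the smallest p that the test allows. Transcripts encoded in mitochondrial DNA took 2.36% ± 0.330 of counts under thapsigargin against 1.98% ± 0.525 without external calcium (SD, 4 libraries each, exact permutation p = 0.286, adjusted 0.286). Replicate 4 stood apart in both groups on the first principal component, which held 48.0% of the variance. Xist, the RNA of the inactive X chromosome, was at 581 and 713 CPM in these 2 libraries and at most 0.326 CPM in the other 6, and the sum of 4 Y-linked genes was 197 to 226 CPM in those 6 and at most 0.0677 CPM in replicate 4. Replicate 1 of the calcium-free group lay apart from its replicates 2 and 3 on the third component (7.23% of the variance). CPM are counts per M of the normalised library size.

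Of 16735 genes tested, 2421 were higher with thapsigargin (14.5%) and 1577 were lower (9.42%), at an adjusted p under 0.05 in edgeR's quasi-likelihood test, so that 23.9% were called in either direction. Large differences lay mostly on 1 side: 205 called genes were at least 2-fold higher with thapsigargin (1.22%) and 8 were at least 2-fold lower (0.0478%). The libraries of the groups did not overlap in CPM for 28.9% of all genes tested, 15.9% with thapsigargin above and 13% with thapsigargin below. The same test was also run with the replicate number as a block. Same-numbered libraries of the groups deviated together, but replicates 1 to 3 did so as much across unlike numbers, so that replicate 4 alone sets the pairing apart. The fit with the block called 3744 genes higher (22.4%) and 3809 lower (22.8%), or 45.1% in either direction. Of all genes, 0 were called with opposite signs by the fits, which used the same libraries. Lower calls numbered 907 and 1005 in the fits without replicate 2 or 3 of the calcium-free group. They numbered 1126 and 1134 without replicate 2 or 3 of thapsigargin, and 2107 without its replicate 4.

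**Figure D1:**
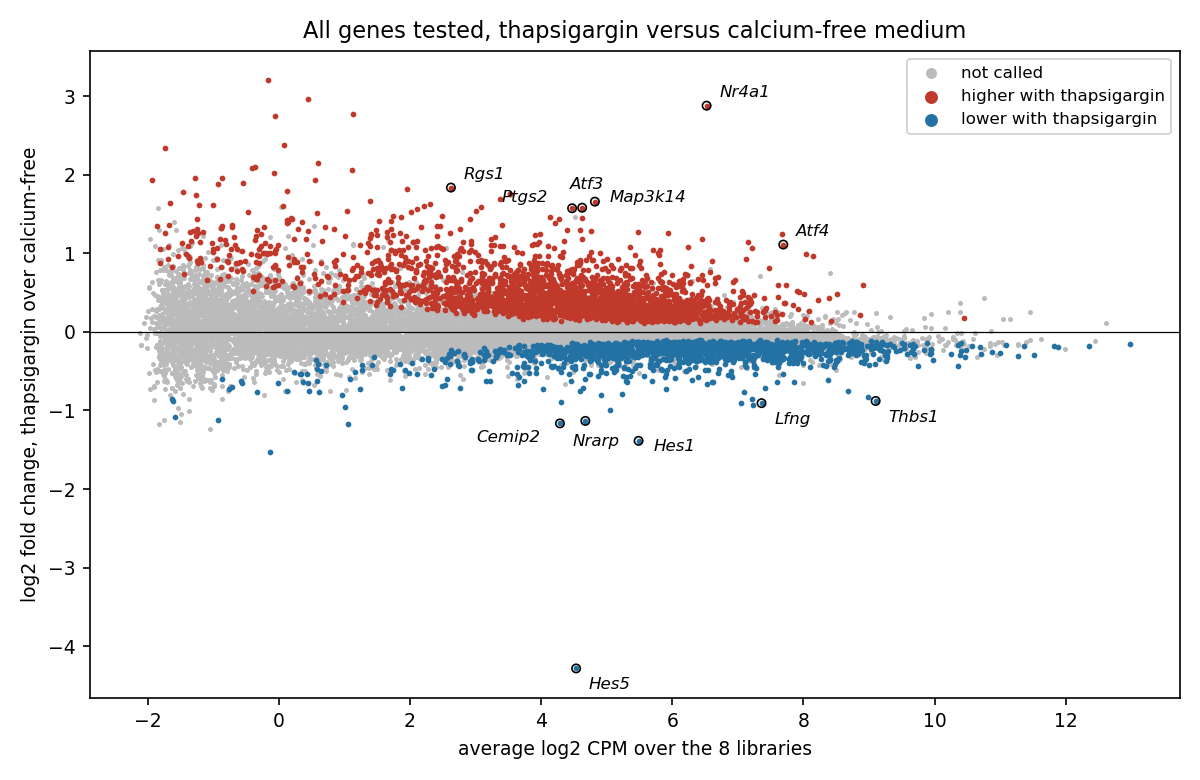
Log2 fold change of thapsigargin over calcium-free medium (y axis) against the average log2 CPM of the 8 libraries (x axis) for the 16735 genes tested, 1 point per gene, with called genes in red (higher) and blue (lower). Hes5 lies alone at -4.28, Nr4a1 leads the abundant increases at 2.88, and most blue points sit within 1 unit of 0.

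The decrease of Hes5 was the largest among the named genes. Hes5 and Hes1 are transcriptional repressors switched on by cleaved Notch, and Nrarp is a Notch-induced inhibitor of the same pathway. Lfng is a Golgi glycosyltransferase that adds sugar to Notch and is itself a Notch target in several tissues. When a Notch receptor is cut, its intracellular part joins the DNA-binding protein RBPJ, which recognises TGGGAA. RefSeq windows of 250 bases before the gene start (GRCm38.p6, a build earlier than the GRCm39 coordinates of the counts) were found by symbol for 17 of 23 genes with the largest changes. Here and below, rose and fell refer to thapsigargin relative to calcium-free medium, not to controls. The controls of Hes5 lay near the thapsigargin libraries and those of Lfng nearer to the calcium-free ones. The windows of Hes5 (chr4:154960673-154960922, plus strand) and Lfng (chr5:140607091-140607340, plus strand) are shown because these genes fell in this sense and carry the motif on both strands. TGGGAA or its reverse complement is in capitals.
Hes5: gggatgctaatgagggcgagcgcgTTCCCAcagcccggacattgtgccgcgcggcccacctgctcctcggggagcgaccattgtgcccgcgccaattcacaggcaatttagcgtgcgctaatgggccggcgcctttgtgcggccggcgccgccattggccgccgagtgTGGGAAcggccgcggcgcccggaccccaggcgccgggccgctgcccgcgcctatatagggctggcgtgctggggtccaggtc
Lfng: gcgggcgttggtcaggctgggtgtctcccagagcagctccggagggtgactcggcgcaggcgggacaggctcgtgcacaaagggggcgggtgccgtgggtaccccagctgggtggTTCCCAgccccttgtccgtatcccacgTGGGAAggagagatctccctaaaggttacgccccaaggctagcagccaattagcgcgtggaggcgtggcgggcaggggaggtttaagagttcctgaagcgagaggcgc
In Hes5 the matches lie 226 to 221 and 82 to 77 bases before the start, and in Lfng 135 to 130 and 108 to 103 bases before it. The motif was present in 21.6% of all 32851 windows of this length, in 3 of the 7 matched genes that fell and in 2 of the 10 that rose, and the Nrarp window held 0 matches.

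Hes5 (gene 15208, GRCm39 chromosome 4, 155042358 to 155046829, plus strand) was at 1.37, 1.61, 1.84 and 4.22 CPM with thapsigargin. In calcium-free medium it was at 37.2, 32.3, 28.7 and 78.3 CPM. The genes of the largest changes were chosen among those whose groups did not overlap, so that choice fixed the separation of their groups here and below. Replicate 4 was the highest of both groups for Hes5. The log2 fold change was -4.28 (SE 0.45, adjusted p = 0.000366), a level 19.5-fold lower with thapsigargin. Controls were at 1.18 to 1.59 CPM, within reach of the thapsigargin libraries of replicates 1 to 3. Hes1 (gene 15205, chromosome 16, 29883259 to 29886614, plus strand) was at 22.1, 22.9, 21.6 and 32.7 CPM with thapsigargin and at 63.9, 58.7, 55.3 and 81.4 CPM in calcium-free medium. Both groups lay above the controls, at 7.69 to 11.7 CPM. The log2 fold change of Hes1 was -1.39 (SE 0.16, adjusted p = 0.000585). Nrarp was at 14.6 to 19.4 CPM with thapsigargin and 27.8 to 47.4 CPM in calcium-free medium, with controls at 17.5 to 20.9 CPM. Its log2 fold change was -1.13 (SE 0.17, adjusted p = 0.00171).

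Lfng had another order. It was at 116, 121, 118 and 103 CPM with thapsigargin, at 205, 213, 219 and 221 CPM in calcium-free medium and at 176 to 212 CPM in controls. The log2 fold change was -0.91 (SE 0.06, adjusted p = 4.59e-05). For Lfng the thapsigargin libraries lay apart from the control range, whereas for Hes5 and Hes1 the calcium-free libraries lay farthest from it. Of the 8 Notch target genes listed, 3 fell, where 9.42% of all genes tested fell, and the other 5 did not pass. The median log2 change was -0.05 beside -0.01 over all genes. Among them, Hey1, another Notch-induced repressor, was at 119 to 137 CPM with thapsigargin and 114 to 126 CPM in calcium-free medium (log2 change 0.05, SE 0.06, adjusted p = 0.610). The median of the list was 0.02 without replicate 2 of the calcium-free group.

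Of 30 genes for Notch receptors, ligands, modifiers and cleavage, 7 fell and 2 rose (5 with the block), with a median log2 change of -0.05. These counts and those of the lists that follow stand beside 9.42% lower and 14.5% higher over all genes, or 22.8% and 22.4% with the block. Besides Lfng they included Pofut1, which puts the first sugar on Notch, at 46.5 to 47.8 CPM with thapsigargin and 57.8 to 61.3 CPM in calcium-free medium (log2 change -0.33, SE 0.03, adjusted p = 0.00035). The receptor Notch3 had a log2 change of -0.66, and the proteases that cut Notch had smaller ones, at -0.32 for Adam10, -0.25 for Adam17 and -0.29 for Furin. Notch1 itself was at 380 to 431 CPM with thapsigargin and 318 to 437 CPM in calcium-free medium, groups that overlapped (log2 change 0.07, SE 0.10, adjusted p = 0.653). Maml2, a co-activator of cleaved Notch, was among the 2 that rose, at 0.31. Without replicate 2 or replicate 3 of the calcium-free group, 1 of these increases was left.

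**Figure D2:**
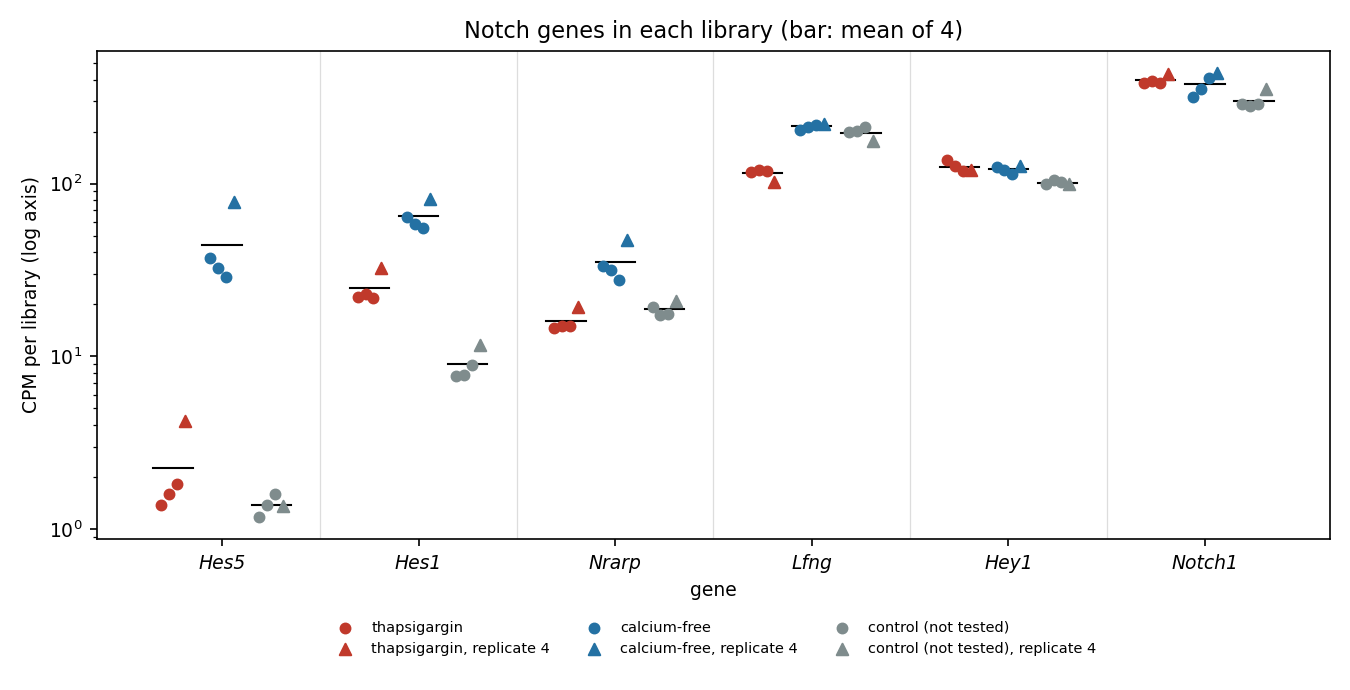
CPM in each library (y axis, log scale) of 5 Notch target or modifier genes and of Notch1 (x axis), in red for thapsigargin, blue for calcium-free medium and grey for the untested controls, with replicate 4 as a triangle and a bar at the mean of 4. Hes5, Hes1, Nrarp and Lfng are among the largest decreases, which were chosen from genes without overlap of red and blue. Hey1 and Notch1 overlap.

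The largest increase among the named genes was that of Nr4a1, and all 3 members of its family were among the 12 largest increases. Nr4a1, Nr4a2 and Nr4a3 are orphan nuclear receptors of the immediate early class, transcribed soon after a calcium or cyclic AMP signal through the factor CREB, which binds TGACGTCA in full or its core TGACG. The windows before their starts are shown because the family rose together, with TGACG or its reverse complement in capitals. The core was chosen as a motif after the windows had been seen.
Nr4a1: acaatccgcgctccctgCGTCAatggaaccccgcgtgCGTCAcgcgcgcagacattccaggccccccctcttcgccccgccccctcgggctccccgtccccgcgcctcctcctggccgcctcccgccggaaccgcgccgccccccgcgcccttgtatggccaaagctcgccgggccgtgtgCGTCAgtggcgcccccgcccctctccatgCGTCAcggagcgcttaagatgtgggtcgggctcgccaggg
Nr4a2: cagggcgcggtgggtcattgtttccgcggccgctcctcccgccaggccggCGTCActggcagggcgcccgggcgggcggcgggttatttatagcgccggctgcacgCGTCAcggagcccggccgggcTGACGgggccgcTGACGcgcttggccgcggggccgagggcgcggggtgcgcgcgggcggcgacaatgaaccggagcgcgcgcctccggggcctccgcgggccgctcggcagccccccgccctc
Nr4a3: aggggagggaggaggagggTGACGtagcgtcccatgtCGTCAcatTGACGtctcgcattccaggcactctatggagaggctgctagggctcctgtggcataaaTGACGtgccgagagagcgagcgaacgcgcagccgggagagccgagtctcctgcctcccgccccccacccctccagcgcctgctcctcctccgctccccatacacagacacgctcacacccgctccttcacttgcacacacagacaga
They lie at chr15:101266596-101266845 (plus strand), chr2:57124004-57124253 (minus strand, shown as transcribed) and chr4:48045055-48045304 (plus strand) of GRCm38.p6. Each holds 4 cores, those of Nr4a1 starting 233, 213, 69 and 40 bases before the start. At least 1 core was present in 17.8% of all windows, in 6 of the 10 matched genes that rose and in 1 of the 7 that fell. The full site, which contains a core on each strand, was in 1.55% of all windows and, among the 17, only in that of Ch25h.

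Nr4a1 (gene 15370, GRCm39 chromosome 15, 101151783 to 101172676, plus strand) was at 130, 148, 150 and 219 CPM with thapsigargin. It was at 29.1, 19.7, 20.0 and 19.3 CPM in calcium-free medium and 12.6 to 19.0 CPM in controls. The groups were apart by the rule that chose the largest changes, and the highest calcium-free value was that of replicate 1. The log2 fold change was 2.88 (SE 0.20, adjusted p = 5.86e-05), or 7.35-fold. Nr4a2 was at 12.3 to 20.0 CPM with thapsigargin and 4.42 to 5.26 CPM in calcium-free medium (log2 change 1.69, SE 0.14, adjusted p = 0.000145). Nr4a3 was at 9.90 to 16.4 CPM and 3.62 to 4.98 CPM (log2 change 1.54, SE 0.18, adjusted p = 0.000597). The calcium-free values of Nr4a2 lay below its controls, at 5.40 to 6.03 CPM.

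Of 25 immediate early transcription factors tested, 20 rose with thapsigargin relative to calcium-free medium and 5 did not pass, where 14.5% of all genes were higher. The median log2 change was 0.68. Klf2, a zinc finger factor, was at 23.0 to 29.5 CPM with thapsigargin and 9.04 to 9.83 CPM in calcium-free medium (log2 change 1.46, SE 0.08, adjusted p = 4.59e-05), and its controls were at 7.33 to 8.99 CPM. In the same list Egr3 had a log2 change of 1.82, Fosb of 1.45 and Egr2 of 1.43. Fos, a subunit of the AP-1 factor, was at 193 to 273 CPM and 106 to 188 CPM, with a log2 change of 0.60 (SE 0.17, adjusted p = 0.0329). Its adjusted p lay between 0.0534 and 0.101 without any 1 of replicates 1, 2 and 3 of thapsigargin or 2 and 3 of the calcium-free group. Npas4, a calcium-induced factor, had a log2 change of 0.68 (SE 0.20, adjusted p = 0.0360), which rose to between 0.0554 and 0.107 without any 1 of replicates 1, 2 and 3 of thapsigargin or 2, 3 and 4 of the calcium-free group. Egr1, a zinc finger factor induced by growth factor signals, did not pass. It was at 267 to 350 CPM with thapsigargin and 239 to 354 CPM in calcium-free medium, both far above the controls at 29.5 to 47.8 CPM (log2 change 0.03, SE 0.12, 95% interval -0.24 to 0.31, adjusted p = 0.887).

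Of 20 immediate early effectors, genes of the same rapid class that do not encode transcription factors, 12 rose and 8 did not pass, with a median log2 change of 0.53. Ptgs2, the inducible cyclooxygenase, was at 36.4, 37.8, 37.3 and 21.0 CPM with thapsigargin and at 12.9, 13.6, 13 and 4.98 CPM in calcium-free medium. Replicate 4 was low in both groups (log2 change 1.57, SE 0.31, adjusted p = 0.00658). Ier5l rose by a log2 change of 0.90 (SE 0.04, adjusted p = 2.25e-05) and the kinase Plk2 by 0.82 (SE 0.05, adjusted p = 4.59e-05). Arc, a synaptic early gene, was at 14.5 to 18.4 CPM and 12.6 to 15.3 CPM, above the controls at 3.75 to 4.91 CPM in both groups. Its log2 change of 0.25 (SE 0.09) had an adjusted p of 0.0936, which was 0.0439 with the replicate block and 0.0392 without replicate 1 of the calcium-free group.

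Feedback genes of the MAP kinase pathway rose in 9 of 22 cases, with a median log2 change of 0.20. Dusp5, a phosphatase of ERK, was at 19.7 to 22.9 CPM with thapsigargin and 9.98 to 13.8 CPM in calcium-free medium (log2 change 0.79, SE 0.10, adjusted p = 0.000897). The receptor signalling inhibitors Spry2 and Spry4 had log2 changes of 0.45 (SE 0.08, adjusted p = 0.00354) and 0.44 (SE 0.06, adjusted p = 0.00103). Both groups were above the controls for Spry2, with 162 to 168 CPM, 101 to 133 CPM and 59.8 to 67.4 CPM in controls. Dusp6, another ERK phosphatase, had a log2 change of 0.25 (SE 0.05, adjusted p = 0.0103, and 0.0610 without replicate 2 of thapsigargin). Of 13 genes of CREB, its CRTC co-activators and salt-inducible kinases, 9 rose, with a median of 0.20, and 5 rose without any 1 of replicates 1 and 2 of thapsigargin or replicate 2 of the calcium-free group. Sik1, a kinase that CREB induces and that holds CRTC in the cytosol, was at 33.9 to 51.1 CPM and 17.5 to 22.5 CPM (log2 change 1.00, SE 0.14, adjusted p = 0.00133). Crtc3 had a log2 change of 0.45 (SE 0.04, adjusted p = 0.000276). Of 17 regulators of G protein signalling, which speed the shut-off of heterotrimeric G proteins, 4 rose and the median was 0.09. Rgs1 was at 7.69 to 10.3 CPM with thapsigargin and 2.5 to 3.00 CPM in calcium-free medium (log2 change 1.84, SE 0.12, adjusted p = 5.32e-05), and Rgs2 had a log2 change of 0.92 (SE 0.05, adjusted p = 4.59e-05).

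**Figure D3:**
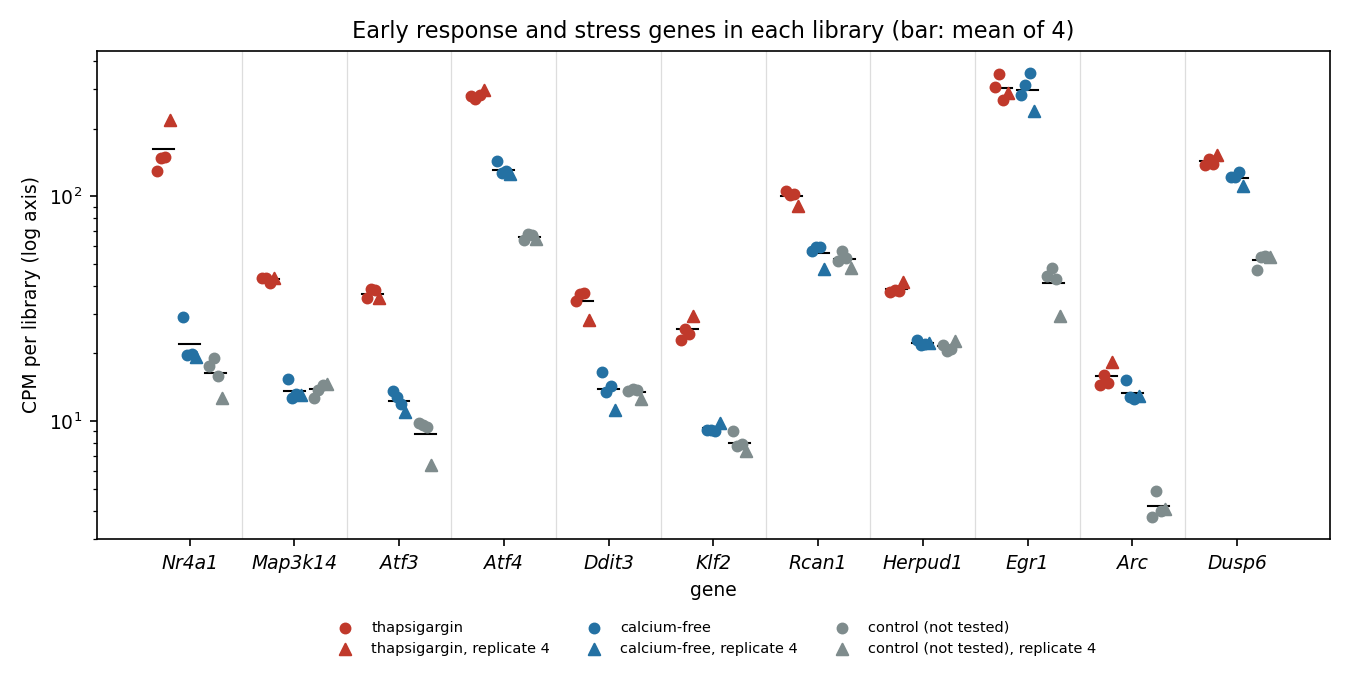
CPM in each library (y axis, log scale) of 11 early response and stress genes (x axis), in red for thapsigargin, blue for calcium-free medium and grey for the untested controls, with replicate 4 as a triangle and a bar at the mean of 4. For Nr4a1, Map3k14, Ddit3 and Herpud1 the blue libraries sit near the grey ones, whereas for Egr1, Arc and Dusp6 red and blue are close together and far above grey.

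Genes of NF-kB signalling and inflammation were called higher with thapsigargin more often than lower. Of 29 tested, 12 rose, 2 fell and 15 did not pass, with a median log2 change of 0.25. Map3k14 (gene 53859, chromosome 11, 103110590 to 103158227, minus strand) encodes NIK, the kinase that starts the non-canonical NF-kB pathway. It was at 43.5, 43.3, 41.1 and 43.1 CPM with thapsigargin and at 15.3, 12.6, 13.2 and 13.1 CPM in calcium-free medium. The groups were narrow (log2 change 1.66, SE 0.06, adjusted p = 1.70e-05), and the controls, at 12.6 to 14.7 CPM, overlapped the calcium-free libraries. Rel, an NF-kB subunit, was at 9.18 to 10.3 CPM and 4.02 to 4.72 CPM (log2 change 1.14, SE 0.08, adjusted p = 6.33e-05). The chemokine gene Cxcl1 was low in all libraries, at 2.35 to 4.93 CPM with thapsigargin and 0.564 to 0.983 CPM in calcium-free medium (log2 change 2.06, SE 0.28, adjusted p = 0.00114). Other chemokine genes that rose were Cxcl2 at 2.37, Ccl7 at 2.10 and Ccl2 at 0.72. The 2 genes that fell were Csf1, the growth factor of microglia, at -0.42 and Icam1 at -0.22, and 1 of them was left without any 1 of replicates 1, 2 and 3 of the calcium-free group or replicate 3 of thapsigargin. Ch25h, which makes 25-hydroxycholesterol, was at 6.72 to 7.74 CPM with thapsigargin, 2.13 to 2.66 CPM in calcium-free medium and 2.28 to 4.83 CPM in controls (log2 change 1.63, SE 0.11, adjusted p = 5.32e-05).

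The integrated stress response slows translation through phosphorylated eIF2α and raises the factor ATF4, which induces CHOP, encoded by Ddit3, together with amino acid transport and synthesis genes. The 32 listed genes were divided: 7 rose and 7 fell, with a median log2 change of -0.07, and 15 fell with the block. Among the 7 that rose, Atf4 was at 278, 271, 283 and 299 CPM with thapsigargin, 143, 126, 129 and 125 CPM in calcium-free medium and 63.8 to 68.1 CPM in controls. Calcium-free libraries were therefore between the others, and the log2 change was 1.11 (SE 0.05, adjusted p = 2.38e-05). Ddit3 was at 28.2 to 37.3 CPM and 11.2 to 16.6 CPM, with controls at 12.5 to 13.9 CPM (log2 change 1.30, SE 0.13, adjusted p = 0.000267). Atf3 (gene 11910, chromosome 1, 190902493 to 190915530, minus strand), a stress-induced repressor, was at 35.4, 38.7, 38.2 and 35.2 CPM with thapsigargin and 13.7, 12.8, 11.9 and 11 CPM in calcium-free medium (log2 change 1.58, SE 0.07, adjusted p = 2.25e-05). Its RefSeq window (chr1:191183334-191183583, GRCm38.p6, minus strand, shown as transcribed) is shown because Atf3 rose most in this list.
Atf3: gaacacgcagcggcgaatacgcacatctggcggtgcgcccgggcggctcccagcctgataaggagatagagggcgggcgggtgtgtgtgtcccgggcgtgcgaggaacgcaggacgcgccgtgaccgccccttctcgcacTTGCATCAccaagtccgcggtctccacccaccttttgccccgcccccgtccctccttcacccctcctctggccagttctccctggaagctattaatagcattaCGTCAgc
The first capitals mark the element TGATGNAA that C/EBP and ATF factors bind, on the reverse strand, 110 to 103 bases before the start, and the second a TGACG core 7 to 3 bases before it. The element was in 3.45% of all windows, and the window of Ntng1, which fell, held it too.

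Ppp1r15a, the phosphatase subunit that ends the response, had a log2 change of 0.30 (SE 0.07, adjusted p = 0.0176), and its adjusted p was 0.0550 to 0.0774 without any 1 of replicates 3 and 4 of thapsigargin or replicate 2 of the calcium-free group. It was at 37.3 to 40.9 CPM with thapsigargin, 28.1 to 35.9 CPM in calcium-free medium and 15.8 to 17.7 CPM in controls. The members of the integrated stress response list that fell were Atf5, the transporter gene Slc7a1, the synthesis genes Psat1 and Mthfd2, the tRNA exporter Xpot and the synthetases Sars and Wars1, at log2 changes between -0.29 for Psat1 and -0.14 for Wars1. Wars1 had an adjusted p of 0.0520 to 0.0560 without replicate 2 of thapsigargin or replicates 2 or 3 of the calcium-free group. Without replicate 2 of the calcium-free group, 4 genes of the list rose. Of 20 aminoacyl-tRNA synthetases, 3 fell, 12 with the block, where 9.42% and 22.8% of all genes fell, and the median log2 change was -0.11. The number that fell was 9 without replicate 4 of thapsigargin, 6 without replicate 1 of the calcium-free group and 1 without its replicate 2 or 3.

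Genes of ER folding and of the sensors of the unfolded protein response were called in smaller numbers and mostly lower. Hspa5, which encodes the main ER chaperone BiP, was at 894 to 973 CPM with thapsigargin, 887 to 911 CPM in calcium-free medium and 813 to 856 CPM in controls. The 2 treated groups overlapped (log2 change 0.06, SE 0.04, 95% interval -0.03 to 0.15, adjusted p = 0.307). Of 21 ER chaperones, 6 fell and the median log2 change was -0.07. The block called 10 lower and 2 higher, and without replicate 4 of the calcium-free group 2 were higher. The oxidase Ero1a was at 27.3 to 38.7 CPM with thapsigargin and 44.3 to 49.9 CPM in calcium-free medium (log2 change -0.58, SE 0.10, adjusted p = 0.00445). Its controls spread from 29.6 to 60.2 CPM and overlapped both groups. The disulfide isomerases Txndc5 and Pdia6 had log2 changes of -0.31 (SE 0.05, adjusted p = 0.00232) and -0.23 (SE 0.04, adjusted p = 0.00236). Of 9 sensors and direct effectors, 1 rose and 2 fell, with a median of -0.14 and 4 lower with the block. Xbp1, whose RNA the sensor IRE1 splices, was the 1 that rose, from 39.2 to 48.9 CPM in calcium-free medium to 58.6 to 65.5 CPM with thapsigargin (log2 change 0.49, SE 0.07, adjusted p = 0.00165). Those that fell were Mbtps1, the protease that activates ATF6 and SREBP, at -0.34 (SE 0.05, adjusted p = 0.0021) and Atf6 at -0.25, and 1 of them was left without any 1 of replicates 2 and 3 of either group. Of 14 genes reported as targets of decay by IRE1, 2 fell, Scara3 and Pmp22, and 10 with the block (median log2 change -0.12). Scara3 had an adjusted p of 0.0429 and Pmp22 of 0.0395, which were 0.0521 to 0.116 and 0.0560 to 0.116 without any 1 of replicates 1, 2 and 3 of thapsigargin or 2 and 3 of the calcium-free group, and for Scara3 also its replicate 1. The count was 5 of 14 without replicate 4 of the calcium-free group.

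Genes that move and clear ER proteins were lower with thapsigargin more often than higher. Of 17 translocon and signal peptidase genes, 11 fell and 1 rose, with a median log2 change of -0.16, where 9.42% of all genes were lower. Spcs3, a signal peptidase subunit, was at 70.6 to 77.4 CPM with thapsigargin and 101 to 107 CPM in calcium-free medium, and the controls, at 102 to 106 CPM, overlapped the calcium-free group (log2 change -0.49, SE 0.04, adjusted p = 0.000137). Tram1l1 had a log2 change of -0.67 (SE 0.10, adjusted p = 0.00164), and Tram2 was the 1 that rose, at 0.38, which was not called without any 1 of replicates 2 and 3 of thapsigargin or 1, 2 and 3 of the calcium-free group. Of 21 genes of ER-associated degradation, 3 rose and 6 fell, with a median of -0.05, and 3 fell without replicate 2 of the calcium-free group. Herpud1, an early ER stress gene of this pathway, was at 37.6, 38.3, 37.9 and 41.4 CPM with thapsigargin and 22.9, 21.8, 22.1 and 22.3 CPM in calcium-free medium. Controls, at 20.5 to 22.8 CPM, overlapped the calcium-free libraries (log2 change 0.80, SE 0.05, adjusted p = 4.59e-05). Dnajc10, an ER reductase, had a log2 change of -0.35 (SE 0.04, adjusted p = 0.000393). Sel1l and Edem3, which handle misfolded glycoproteins, were at -0.45 and -0.44.

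Of 17 genes of store-operated calcium entry, 2 rose and 2 fell, near the 23.9% called over all genes in either direction. The block called 5 lower, and the median log2 change was -0.09. Orai1, the pore of the channel, was at 27.8, 25.2, 26.5 and 24.7 CPM with thapsigargin and 22.7, 22.7, 21.3 and 21.7 CPM in calcium-free medium, without overlap, while controls at 20.8 to 24.9 CPM overlapped both (log2 change 0.24, SE 0.05, adjusted p = 0.0104). Trpc1, a channel reported to join store-operated currents, was at 23.2 to 26.7 CPM and 17.5 to 20.3 CPM (log2 change 0.39, SE 0.07, adjusted p = 0.00391). Orai2 and Orai3 had log2 changes of 0.04 (SE 0.08, 95% interval -0.13 to 0.21) and -0.01 (SE 0.06, 95% interval -0.15 to 0.13). The store calcium sensor Stim1 was at 57.9 to 66.4 CPM and 59.3 to 77.7 CPM (log2 change -0.10, SE 0.08, adjusted p = 0.440). Stim2, the more sensitive sensor, was at 30.4 to 39.5 CPM and 36.4 to 43.6 CPM, with a log2 change of -0.21 (SE 0.09) whose adjusted p was 0.123, 0.00136 with the block and 0.0494 without replicate 4 of the calcium-free group. Saraf, which inactivates the channel, had a log2 change of -0.13 (SE 0.06) with an adjusted p of 0.161, or 0.0089 with the block. In this list 4 genes fell without replicate 4 of the calcium-free group, and without replicate 2 of that group the median was 0.02.

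Pumps, exchangers and release channels of calcium fell in 8 of 25 cases and rose in 1 (Micu3 at 0.40, not called without replicates 2 or 3 of thapsigargin or 2 of the calcium-free group), with a median log2 change of -0.15 and 13 lower with the block. Atp2a2, which encodes the SERCA2 pump that thapsigargin binds, was at 467 to 509 CPM with thapsigargin and 536 to 578 CPM in calcium-free medium (log2 change -0.18, SE 0.04, adjusted p = 0.0171, and 0.0555 or 0.0558 without replicate 2 or 3 of the calcium-free group). Controls were between the groups, at 515 to 524 CPM. The plasma membrane pump gene Atp2b1 had a log2 change of -0.19 (SE 0.04, adjusted p = 0.00681). Without replicate 2 or replicate 3 of the calcium-free group, 3 of the pump and channel genes fell. Of 14 genes of calmodulin and its kinases, 4 fell, with a median of -0.03, and Calm2 had a log2 change of -0.36 (SE 0.07, adjusted p = 0.00746). Without replicate 2 or replicate 3 of the calcium-free group 2 of them fell, and the block called 6 lower and 3 higher. Of 16 S100 proteins and annexins, which bind calcium, 6 fell, 14 with the block, and the log2 change was below 0 in each (median -0.23). S100a11 was at 108 to 136 CPM with thapsigargin, 199 to 222 CPM in calcium-free medium and 191 to 234 CPM in controls (log2 change -0.72, SE 0.08, adjusted p = 0.000414). Without replicate 2 or replicate 3 of the calcium-free group, 3 members of this list fell. Of 16 genes of calcineurin and its NFAT and MEF2 factors, 3 rose, with a median of -0.02, and the block called 6 higher and 2 lower. Rcan1, a calcineurin inhibitor that NFAT induces, was at 90.2 to 106 CPM and 47.6 to 59.7 CPM, with controls at 48.0 to 57.3 CPM (log2 change 0.84, SE 0.08, adjusted p = 0.000239). Of 21 receptors and effectors that release calcium, 2 rose and 4 fell (median -0.17), 11 fell with the block, and the glutamate receptor gene Grm5 had a log2 change of -0.28 (SE 0.06, adjusted p = 0.00753).

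The 12 largest decreases also included several genes of no Notch list. Thbs1, a matrix glycoprotein that astrocytes secrete, was at 411, 440, 401 and 295 CPM with thapsigargin and 683, 724, 767 and 672 CPM in calcium-free medium (log2 change -0.88, SE 0.11, adjusted p = 0.000909). Its controls were at 543 to 625 CPM, between the groups. Megf6, a large protein with repeated EGF domains, had a log2 change of -0.93 (SE 0.07, adjusted p = 0.000116). Pkd1, the polycystin receptor, was at 118, 113, 100 and 91.4 CPM and 136, 203, 229 and 200 CPM. Its calcium-free replicate 1 was close to the thapsigargin range, and the log2 change of -0.86 (SE 0.15, adjusted p = 0.00379) had an adjusted p of 0.0554 with the block. Ntng1, a netrin-like protein anchored to the membrane, was at 19.3 to 27 CPM and 31.8 to 51.1 CPM (log2 change -0.80, SE 0.16, adjusted p = 0.00796).

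Of 13 hyaluronan genes, 5 fell, 11 with the block, and the median log2 change was -0.26. Cemip2, reported as a hyaluronidase of the cell surface, was at 11.2 to 13.4 CPM with thapsigargin, 21.1 to 36.7 CPM in calcium-free medium and 31.6 to 42.1 CPM in controls (log2 change -1.16, SE 0.16, adjusted p = 0.00117). Hyal2 had a log2 change of -0.43 (SE 0.06, adjusted p = 0.000934), and the matrix genes Hapln1 and Vcan were at -0.73 and -0.34. With 1 library left out, 3 members fell in 5 of the 8 cases, those of replicates 1, 2 and 3 of thapsigargin and 2 and 3 of the calcium-free group. Of 76 Golgi glycosyltransferases, 24 fell and 2 rose, 38 fell with the block, and the median was -0.16. B4galt5, a lactosylceramide synthase that starts ganglioside synthesis, was at 21.1 to 23.8 CPM and 40.3 to 53.4 CPM (log2 change -0.99, SE 0.09, adjusted p = 0.000229), with controls at 45.6 to 62.5 CPM. Galnt7, which adds to mucin-type sugars, had a log2 change of -0.41 (SE 0.05, adjusted p = 0.00061). Of 28 genes of cadherins and protocadherins, whose extracellular repeats need calcium to bind, and of catenins, 8 fell. The block called 16 lower, and the median was -0.18. Cdh11 was at 116 to 128 CPM with thapsigargin and 145 to 154 CPM in calcium-free medium (log2 change -0.29, SE 0.04, adjusted p = 0.00168), and Cdh13 had a log2 change of -0.24 (SE 0.04, adjusted p = 0.00321). Celsr2, an adhesion receptor with cadherin repeats, was at -0.64.

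Of the lists, the one with the most genes that rose was that of zinc finger genes named Zfp, many of which encode DNA-binding repressors. Of 345 tested, 230 rose and 5 fell (10 with the block, 2 without replicate 3 of thapsigargin), and the median log2 change was 0.48, beside 14.5% higher and a median of -0.01 over all genes. Zfp267 was at 36 to 40.7 CPM with thapsigargin, 14.3 to 16.5 CPM in calcium-free medium and 15.8 to 20.1 CPM in controls (log2 change 1.29, SE 0.06, adjusted p = 2.25e-05). Zfp574 had a log2 change of 0.92 (SE 0.05, adjusted p = 4.59e-05). Among the 230 that rose, the control mean was nearer to the calcium-free mean in 221, beside 2117 of the 2421 higher genes over all genes tested. Of 17 host genes of small nucleolar RNAs, whose spliced transcripts are mostly degraded after translation begins, 7 rose, with a median of 0.35. Snhg1 was at 33.9 to 39.2 CPM and 17.4 to 22 CPM, with controls at 12.9 to 15.2 CPM (log2 change 0.91, SE 0.08, adjusted p = 0.00019), and Snhg12 had a log2 change of 0.90 (SE 0.09, adjusted p = 0.00027).

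Replication-dependent histones, whose main transcripts carry no poly-A tail, showed the opposite relation to controls. Of 49 tested, 23 rose, 35 with the block, and the median log2 change was 0.67. In 22 of the 23 the control mean was nearer to the thapsigargin mean, so that the calcium-free libraries were the low ones. H2bc18 was at 1.98 to 2.47 CPM with thapsigargin, 0.372 to 0.777 CPM in calcium-free medium and 1.40 to 1.86 CPM in controls (log2 change 1.93, SE 0.22, adjusted p = 0.000501). H4c17 had a log2 change of 1.45 (SE 0.21, adjusted p = 0.00159). H1f3, a linker histone, had one of 1.61 (SE 0.38, adjusted p = 0.0152, and 0.0521 without replicate 2 of the calcium-free group). H2bc23 and H2bc24 had nearly identical counts in every library, so their shared log2 change of 1.75 (SE 0.33, adjusted p = 0.00546) is uncertain for each. The histone count moved with single libraries: 35 rose without replicate 4 of the calcium-free group, 11 without its replicate 2, 14 without its replicate 3, and 13 or 14 without replicates 1, 3 or 4 of thapsigargin. Higher calls over all genes moved too, from 2421 to 2752, 1749 and 1908 in the same calcium-free fits. They numbered 1986, 1760 and 2111 without replicates 1, 3 and 4 of thapsigargin.

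Circadian clock genes rose in 8 of 21 cases, 14 with the block, and 1 fell, Tef at -0.10, which was not called without any 1 of replicates 1, 2 and 3 of either group. The median log2 change was 0.33. Ciart, a repressor of the clock, was at 9.69, 12.5, 13.8 and 14.4 CPM with thapsigargin and 5.69, 3.65, 3.06 and 4.34 CPM in calcium-free medium (log2 change 1.59, SE 0.20, adjusted p = 0.000724). Nfil3, Cry2 and Per1, also repressors of the clock, had log2 changes of 1.01, 0.66 and 0.70. Cyclins were divided, with 5 higher, 5 lower of 21 and 8 lower with the block (median -0.07). Ccne2, which drives entry into S phase, was at 12.8 to 15.2 CPM with thapsigargin and 22.5 to 31.5 CPM in calcium-free medium (log2 change -0.90, SE 0.11, adjusted p = 0.000718). Ccnt1 and Ccnt2, subunits of the transcription elongation kinase, rose by log2 changes of 0.62 (SE 0.06, adjusted p = 0.000194) and 0.84 (SE 0.09, adjusted p = 0.000308). Without replicate 1 of thapsigargin 2 cyclins fell, and without any 1 of replicates 2 and 3 of either group 3 rose and 2 or 3 fell.

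Nuclear respiratory chain genes and cytosolic ribosomal protein genes had small log2 changes, below 0 in every member tested. Of 80 nuclear genes for subunits of the respiratory chain, 59 fell with thapsigargin relative to calcium-free medium and each of the 80 had a log2 change below 0 (median -0.17). Cox6b1, of complex IV, was at 164 to 175 CPM with thapsigargin, 218 to 225 CPM in calcium-free medium and 230 to 234 CPM in controls (log2 change -0.40, SE 0.04, adjusted p = 0.000206). Sdhd, of complex II, had a log2 change of -0.39 (SE 0.04, adjusted p = 0.000353). In all 59 the control mean was nearer to the calcium-free mean, as it was in 1402 of the 1577 lower genes over all genes tested. Of 84 cytosolic ribosomal proteins, 21 fell, 72 with the block, and each had a log2 change below 0 (median -0.14), with Rpl24 at -0.29 (SE 0.04, adjusted p = 0.00166). Of 78 mitochondrial ribosomal proteins, 19 fell, 29 with the block, and 2 rose (median -0.08), with Mrpl18 at -0.42 (SE 0.05, adjusted p = 0.000633). Of 37 proteasome subunits, 13 fell, 23 with the block (median -0.12), with Psma5 at 61.0 to 62.1 CPM and 72.8 to 80.4 CPM (log2 change -0.31, SE 0.04, adjusted p = 0.000699). Counts of these small changes depended on single libraries: without replicate 2 of the calcium-free group 34 respiratory, 10 cytosolic ribosomal and 8 mitochondrial ribosomal genes fell, and without replicate 4 of thapsigargin 53 cytosolic ribosomal and 22 proteasome genes fell. Without replicate 2 or 3 of thapsigargin 11 cytosolic ribosomal genes fell, and 10 or 12 mitochondrial ribosomal ones. Without replicate 3 of the calcium-free group 38 respiratory and 12 mitochondrial ribosomal genes fell. Lower calls over all genes moved too, with 907 of 16951 without replicate 2 of that group and 2107 of 16835 without replicate 4 of thapsigargin.

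These lists are made of short genes, and gene length moved with the contrast. Over all genes tested, divided into 10 bins by summed exon length, 3.64% of the shortest bin were higher with thapsigargin and 14.7% lower, against 18.6% higher and 6.99% lower in the longest, and the median log2 change went from -0.11 to 0.04. With an offset for exon length, 31 of the 80 respiratory genes and 10 of the 84 cytosolic ribosomal proteins fell. Over all genes 2039 of 16735 fell in that fit, a share near that of the ribosomal proteins and below that of the respiratory genes. Histones, also short, kept their direction with that offset. The 13 mitochondrially encoded genes, read from the mitochondrial genome, each had a log2 change above 0 (median 0.25), and 0 were called by edgeR, 2 at an unadjusted p under 0.05, 1 by DESeq2 and 4 with the block. ND1 was at 1604 to 2192 CPM with thapsigargin and 1188 to 1963 CPM in calcium-free medium (log2 change 0.43, SE 0.17, adjusted p = 0.104). Without replicate 1 of the calcium-free group, 8 of the 13 rose and ND1 had an adjusted p of 0.0162.

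**Figure D4:**
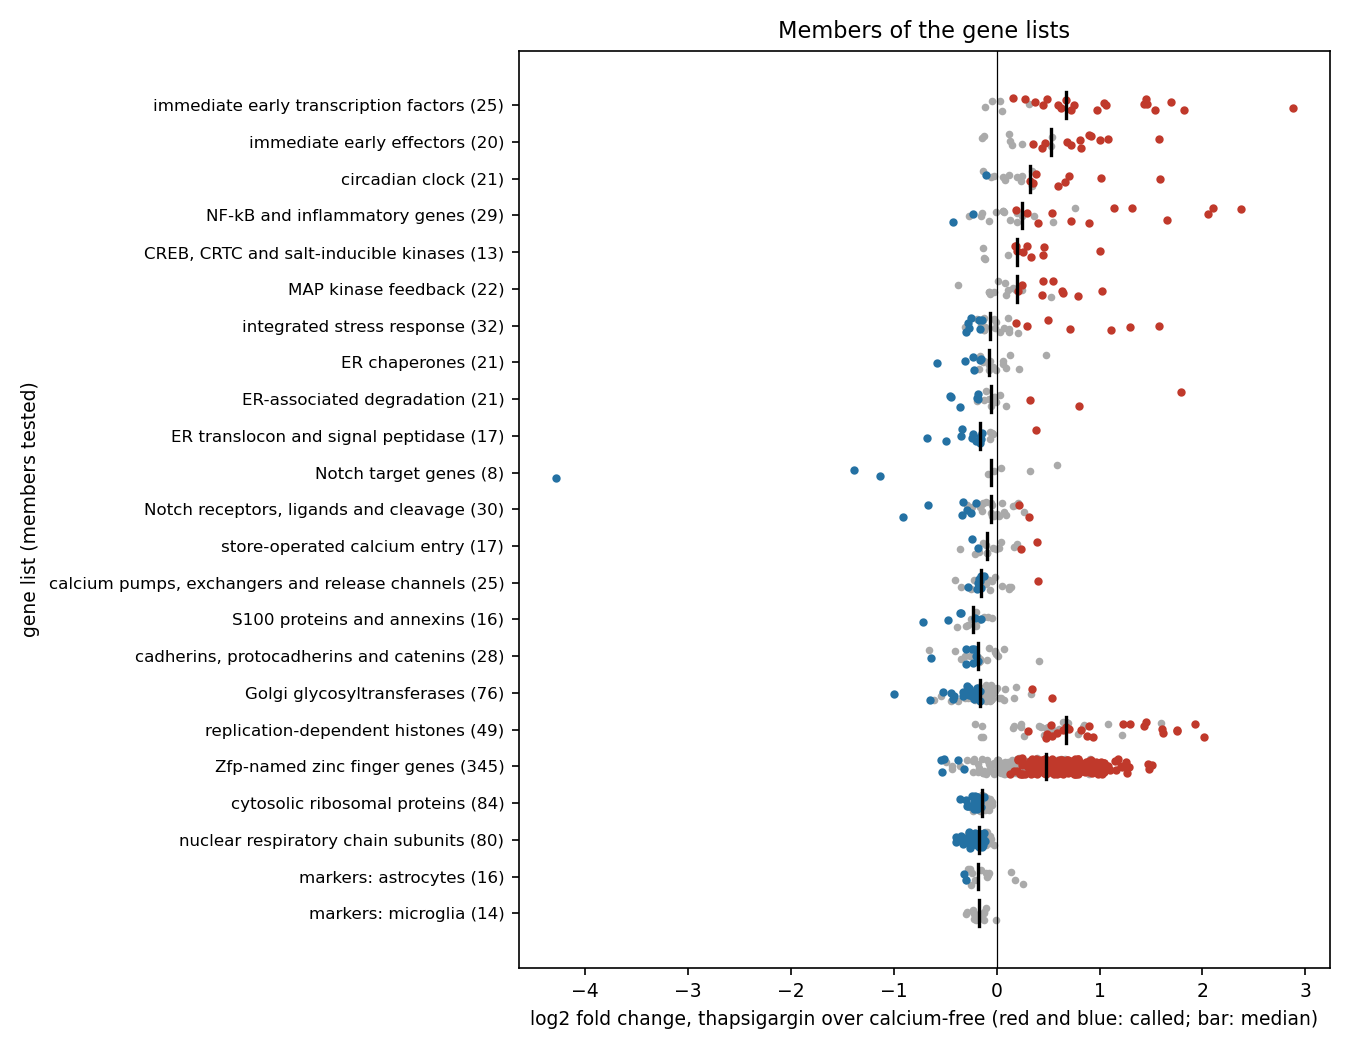
Log2 fold change of thapsigargin over calcium-free medium (x axis) for every tested member of 23 gene lists (y axis, number tested in brackets), 1 point per gene, red or blue where called and grey where not, with a black bar at the median of the list. Immediate early, histone and Zfp medians lie at 0.68, 0.67 and 0.48, while the respiratory chain and ribosomal points form narrow columns just below 0.

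In several further pathways the share called was near that over all genes, 14.5% higher and 9.42% lower (22.4% and 22.8% with the block), or calls were divided between directions. Antioxidant genes were called lower more often than all genes, and 0 of them higher. SRF and actin genes and glycolysis and hypoxia genes were also called lower more often than all genes. Heat shock genes were called higher more often, as were sterol genes with the block. Calls in these further lists went in both directions. Of 25 genes of cholesterol synthesis and SREBP control, 5 rose, 13 with the block, and 3 fell (median log2 change 0.10, and 0.00 without replicate 4 of thapsigargin). Insig1, which holds SREBP in the ER, was at 217 to 235 CPM with thapsigargin, 121 to 138 CPM in calcium-free medium and 119 to 136 CPM in controls (log2 change 0.81, SE 0.05, adjusted p = 4.59e-05). Of the sterol genes, 9 rose without replicate 4 of the calcium-free group. Of 21 cytosolic heat shock genes, 7 rose and 3 fell, 8 with the block (median -0.02), and the inducible chaperone Hspa1a had a log2 change of 0.64 (SE 0.10, adjusted p = 0.00236). Heat shock genes that fell numbered 5 without replicate 4 of thapsigargin. Of 22 antioxidant genes of the NRF2 programme, 8 fell, 16 with the block (median -0.13), and Prdx1 was at 483 to 567 CPM and 675 to 703 CPM (log2 change -0.36, SE 0.05, adjusted p = 0.00159). Without any 1 of replicates 2 and 3 of thapsigargin or 1, 2 and 3 of the calcium-free group, 3 to 5 antioxidant genes fell. Of 23 p53 targets and apoptosis genes, 2 rose and 3 fell (median -0.02), and the block called 6 and 8. Mdm2, which degrades p53, had a log2 change of 0.69 (SE 0.06, adjusted p = 0.00016) and Sesn1, also a p53 target, one of -0.50 (SE 0.05, adjusted p = 0.000279). In this list 4 genes rose without replicate 4 of the calcium-free group.

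Of 24 glycolysis and hypoxia genes, 2 rose and 5 fell, 11 with the block (median log2 change -0.12), with Pfkfb3, which feeds glycolysis, at 0.36 (SE 0.04, adjusted p = 0.000495). Without replicate 2 of the calcium-free group 3 of them fell. Of 25 SRF targets and actin genes, 4 rose, 7 with the block, and 7 fell, 12 with the block (median -0.11). Filip1l was at 20.5 to 27.3 CPM and 8.09 to 13.2 CPM (log2 change 1.07, SE 0.16, adjusted p = 0.00179), and cytoplasmic actin Actg1 had a log2 change of -0.29 (SE 0.05, adjusted p = 0.00327). Without replicate 2 or 3 of thapsigargin 2 of these genes rose, and without replicate 2 or 3 of the calcium-free group 4 fell. Of 19 YAP targets and Hippo feedback genes, 4 rose and 2 fell, 6 with the block (median -0.05), and the kinase Nuak2 was at 68.6 to 82.4 CPM and 35.3 to 38.7 CPM (log2 change 1.05, SE 0.06, adjusted p = 4.59e-05). The 2 that fell, Ccn2 and Crim1, were 7 genes with the exon length offset, 5 without replicate 4 of the calcium-free group, and 1 without replicates 1 or 3 of thapsigargin or 2 or 3 of the calcium-free group. Of 32 growth factors, 2 rose and 2 fell (median -0.11, and 0.03 without replicate 4 of thapsigargin), and the block called 6 and 10. Egf, the ligand also added to the medium as protein, was at 1.56 to 1.92 CPM and 0.662 to 1.11 CPM (log2 change 1.18, SE 0.19, adjusted p = 0.00257), and Wnt7a had a log2 change of -0.29 (SE 0.05, adjusted p = 0.00502). Without any 1 of replicates 1, 2 and 3 of thapsigargin or 2 and 3 of the calcium-free group, 1 growth factor fell.

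Few markers of cell types were called, although most had log2 changes below 0, with list medians from -0.27 for vascular cells and fibroblasts to -0.04 for proliferation, beside -0.17 for the nuclear respiratory chain. In bulk RNA, fewer cells of a type and less RNA per cell cannot be told apart. Astrocyte markers were abundant, with a summed level of 8981 to 11232 CPM with thapsigargin and 10543 to 12083 CPM in calcium-free medium, and Gfap was at a mean of 1213 and 1272 CPM. Of 16 astrocyte markers 2 fell, 7 with the block, which also called 2 higher (median log2 change -0.18): the glutamate transporter Slc1a3 at -0.31 (SE 0.06, adjusted p = 0.00409) and the receptor Fgfr3 at -0.30 (SE 0.06, adjusted p = 0.00599). Without replicate 4 of the calcium-free group 4 astrocyte markers fell and 1 rose, and without replicate 4 of thapsigargin 1 rose. Microglial markers summed to 113 to 180 CPM and 137 to 204 CPM, and 0 of 14 were called by edgeR, 0 at an unadjusted p under 0.05, 0 by DESeq2 and 7 lower with the block (median -0.17, with 0 of 14 above 0). Oligodendrocyte lineage markers summed to 1676 to 1967 CPM and 1794 to 2130 CPM. Of 8 tested, 0 were called by edgeR, 2 were lower at an unadjusted p under 0.05, 1 by DESeq2 and 3 with the block, and the defining genes Sox10 and Mog were below the filter, at means under 0.1 CPM. Neuronal markers summed to 374 to 424 CPM and 455 to 484 CPM, sums that did not overlap, with 1 of 11 higher, Gad1, and 1 lower, Stmn2, or 5 lower with the block (median -0.16), while Rbfox3 was below the filter. Gad1 had an adjusted p of 0.0165 and did not pass without replicates 2 or 3 of thapsigargin or 2 of the calcium-free group, at 0.0523 to 0.0557.

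Of 7 ependymal and progenitor markers, 1 rose, Pax6, and 1 fell, Prom1, or 3 with the block (median log2 change -0.06), with sums of 1714 to 1741 CPM and 1666 to 1907 CPM. Their adjusted p of 0.0361 and 0.0442 went up to 0.102 and 0.117 when 1 of replicates 1, 2 and 3 of either group was left out, with Prom1 still called without replicate 1 of thapsigargin. Tmem212, an ependymal marker, was at 0 in all 8 libraries. Vascular and fibroblast markers summed to 2104 to 2971 CPM and 2818 to 3590 CPM. The 1 of 8 that fell (3 with the block, median -0.27, with 0 of 8 above 0) was Acta2, at 1673 to 1738 CPM and 1880 to 2244 CPM. Of 13 proliferation markers 1 fell, Ccnb1, at a log2 change of -0.30 (SE 0.08, adjusted p = 0.0231, and 0.0509 to 0.0617 without any 1 of replicates 1, 2 and 3 of thapsigargin or 2 of the calcium-free group), or 4 with the block, which called 1 higher (median -0.04). Leaving out single libraries moved the number of oligodendrocyte, neuronal, ependymal and proliferation markers that fell by at most 1. The summed proliferation markers of 2042 to 2601 CPM and 2011 to 2751 CPM overlapped. The part of cell composition in the gene differences above was not tested.

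Set beside the untested controls, the calcium-free libraries were the closer group for most of the called genes. Of the 205 genes at least 2-fold higher with thapsigargin, the control mean was nearer to the calcium-free mean in 147 and to the thapsigargin mean in 58, on a log2 scale with 0.5 CPM added. Of the 8 that were at least 2-fold lower it was nearer to each group in 4. Over all calls of any size it was nearer to the calcium-free mean in 2117 of 2421 higher and 1402 of 1577 lower genes. Long non-coding RNAs (lncRNAs) made up 48 of these 205 genes, from 1503 tested, and protein-coding genes 147, from 14530 tested. Over all lncRNAs 6.39% were higher and 0.865% lower, and for protein-coding genes the shares were 15.8% and 10.6%.

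The size of the largest differences varied between replicate numbers. These genes were chosen among those whose groups did not overlap, which fixes the sign of the ratio within every number. The ratio of Hes5 ran from -4.76 to -3.96 in log2, and that of Map3k14 from 1.5 to 1.78. Among genes not shared with a near-identical copy, the widest ranges were those of Ciart, from 0.77 to 2.17, Nr4a1, from 2.16 to 3.51, and Pkd1, from -1.19 to -0.21, and in all 3 replicate 1 had the smallest difference.

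**Figure D5:**
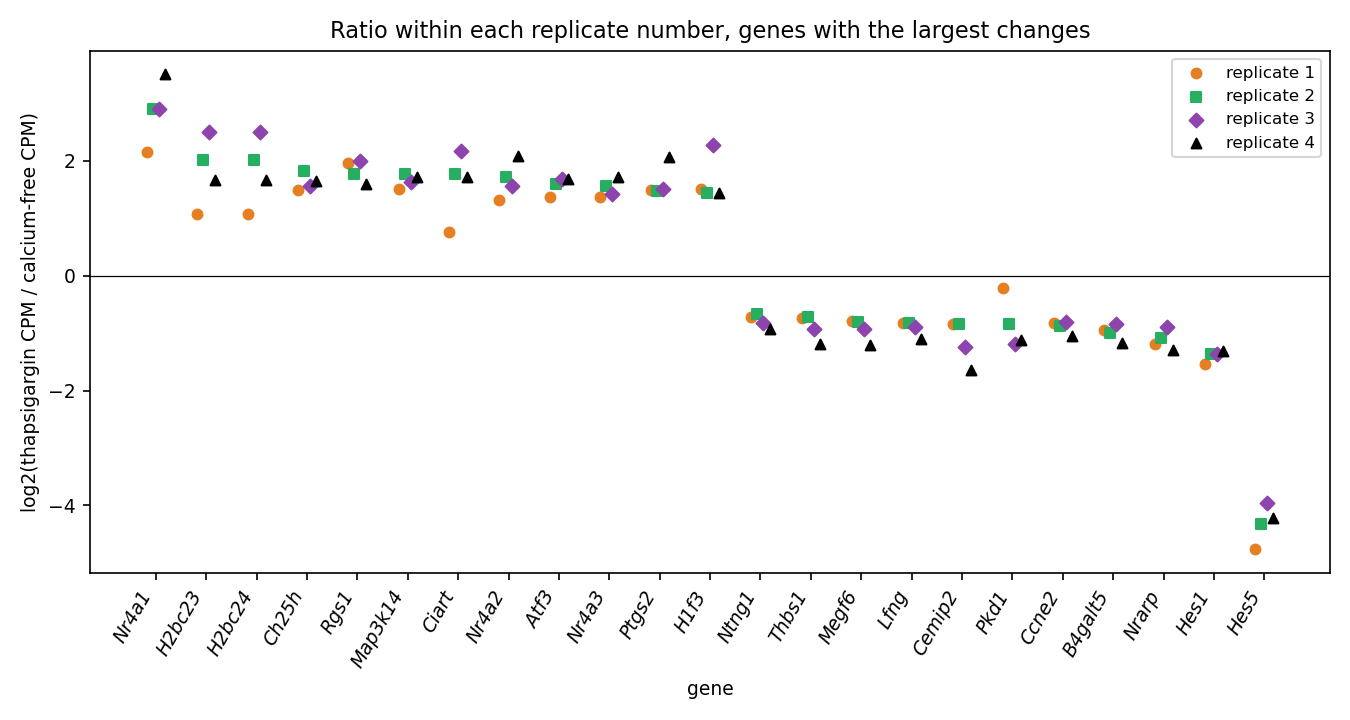
Log2 ratio of thapsigargin CPM to calcium-free CPM within each replicate number (y axis) for 23 genes with the largest changes (x axis), with a marker for each of the 4 numbers. The choice of genes without overlap between groups places all points of a gene on 1 side of 0, and replicate 1 of Pkd1, at -0.21, is the closest to it.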

How the data were processed

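Poly-A RNA of 12 glial culture libraries had been sequenced from 500 ng of RNA, and per the submitters' processing notes the genome was GRCm39 and the tools were STAR 2.7.2b, featureCounts 1.6.4 from Subread, cutadapt 1.17 and bcl2fastq 2.20.0.422. The strand setting, the options and the order are not given in the sources used, so overlapping and antisense genes are uncertain. The deposited table holds estimated counts for 43322 genes, and these expected counts, fractional for 14.2% to 15.9% of the genes of a library, were rounded. Gene coordinates and exon lengths are the authors' deposited annotation, and 0 columns belonged to other samples.

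The 4 thapsigargin and 4 calcium-free libraries were fitted in edgeR 4.0.16 (R 4.3.3) with TMM normalisation, robust quasi-likelihood dispersions and a filter at a minimum count of 10. Benjamini-Hochberg adjustment ran over the 16735 genes left, with a threshold of 0.05 for a call. Standard errors came from the F statistic. CPM of all 12 libraries used 1 common TMM scale. Totals were 36.2 to 42.6 M counts, and read counts without molecular identifiers give no independent molecules. The procedure was tested on simulated data. Library values were compared by exact permutation tests, two-sided.

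Deviations from group means correlated between same-numbered libraries with r of 0.173, 0.391, 0.302 and 0.847, each above 0.1, the rule by which numbers were taken to pair the libraries. Among replicates 1 to 3 unlike numbers correlated as much, at 0.322 to 0.426, and with replicate 4 left out same-numbered r was -0.155 to -0.032. The block by number was an alternative, as were DESeq2 1.42.0, other scalings and filters, all 12 libraries in 1 fit, an exon length offset and leaving out libraries. Any 2 libraries of a group differed beyond sampling noise, so precision rests on that spread more than on depth, with 1.66 to 46.0 as chi-square over its degrees of freedom.

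The comparison, the 49 gene lists (42 of pathways or families and 7 of cell type markers) and the named genes were chosen with earlier results of these data known, and leaving out replicate 1 of both groups was added after seeing the data. Named genes were the 12 largest changes in each direction among calls whose groups did not overlap and whose log2 CPM averaged 2 or more (unnamed, Gm and Rik symbols left out), in each list the 2 members of smallest p, and a fixed set of 32 genes. Of these 132 genes 130 are reported here. Other list members named in the text were chosen after their values were seen. Promoter windows are RefSeq sequences of GRCm38.p6, with motifs searched on both strands.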

Additional observations from a re-analysis of the deposited data

Results flagged for a closer look

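In 30 cases the highest or lowest of the 4 libraries of a group was far from the other 3, with a gap, as a share of the whole range of the group, above the 95% critical value of Dixon's test. Chance alone gives such a gap in about 1 in 20 groups, and 130 genes were looked at in both groups.

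Thapsigargin replicate 4 gave 15 of these cases. It was high for Hes5 at 4.22 CPM (1.37 to 1.84 in the other 3), Hes1 at 32.7 CPM (21.6 to 22.9), Nrarp at 19.4 CPM (14.6 to 15.0), Nr4a3 at 16.4 CPM (9.90 to 10.7) and Pax6 at 77.2 CPM (59.1 to 60.9). It was high by less for Ccnt1 at 44.1 CPM, Psma5 at 62.1 CPM and Mbtps1 at 166 CPM. It was low for Ptgs2 at 21.0 CPM (36.4 to 37.8), S100a11 at 108 CPM (134 to 136) and Saraf at 154 CPM (178 to 181). It was also low for Gad1 at 20.9 CPM, Prom1 at 86.3 CPM, Fgfr3 at 91.8 CPM and Stmn2 at 109 CPM.

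Calcium-free replicate 4 gave 7 cases. It was low for Ptgs2 at 4.98 CPM (12.9 to 13.6 in the other 3), Filip1l at 8.09 CPM (13 to 13.2) and Nfil3 at 14.1 CPM (19.1 to 19.4). It was high for Megf6 at 229 CPM (182 to 189), B4galt5 at 53.4 CPM (40.3 to 42.1), Mrpl18 at 67.3 CPM (59.7 to 60.6) and Klf2 at 9.83 CPM (9.04 to 9.17).

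Calcium-free replicate 1 gave 4 cases, 3 of them early or growth factor genes on the high side: Nr4a1 at 29.1 CPM (19.3 to 20.0 in the other 3), Arc at 15.3 CPM (12.6 to 12.9) and Egf at 1.11 CPM (0.662 to 0.693). It was low for Crtc3 at 31.2 CPM (33.9 to 34.3). The last 4 cases were small in size. Thapsigargin replicate 3 was low for Map3k14 at 41.1 CPM and Nfil3 at 34.2 CPM, calcium-free replicate 2 was high for Rgs1 at 3.00 CPM, and calcium-free replicate 3 was high for Ier5l at 70.5 CPM.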

How the results depend on the processing

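Counts of called genes moved with the block, the threshold, the filter and the libraries used. With the replicate block 3744 genes were higher, 3809 lower and 13 at least 2-fold lower, and 49.6% of the calls were higher in place of 60.6%. Without replicate 4 of both groups 2865 were lower. With the block and an exon length offset together 4314 were lower, 14 at least 2-fold, and 43.2% of the calls were higher. Without a filter on low counts 1022 were lower, and with a minimum count of 50, 5 were at least 2-fold lower. At an adjusted p under 0.01 there were 1460 genes higher with thapsigargin, 599 genes lower with thapsigargin and 4 at least 2-fold lower. Leaving out 1 library gave 1749 to 2752 higher and 907 to 2107 lower, and a library total difference of 1.78 to 3.82 M counts. Without calcium-free replicate 4, whose removal separates the groups fully, the unadjusted exact p of that difference was past the threshold. In 19 alternatives no gene was called with the opposite sign, but these fits share most of their libraries, so that opposite calls were unlikely. The block shared 2396 higher and 1565 lower calls with the fit without it. Of the 130 named genes reported, 5 changed sign in some fit, and these 5 were called in none. Without single libraries or replicate 4 of both groups, Notch1 ran from -0.0048 to 0.146, Hey1 from -0.0090 to 0.0950, Orai2 from -0.0072 to 0.0878, Egr1 from -0.0589 to 0.127 and Orai3 from -0.0482 to 0.0151. Egr1 was at -0.0043 and Orai2 at -0.0128 with the exon length offset, Orai2 at -0.0124 with block and offset, Orai3 at 0.0075 without a filter, and without replicate 4 of both groups Egr1 was at -0.0297 and Orai3 at 0.00080. The cause of these differences was not tested. Within a group every pair of libraries was apart beyond counting error, so that depth is not the only limit on small changes.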
